A study of Mus musculus with 31 samples.

Results

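The Hox genes of the 4 mouse clusters were examined across 31 microarrays of distal colon. Genes were taken by name, as Hox followed by a letter from a to d and a number from 1 to 13, with antisense and opposite-strand names left out. This rule found 39 genes, of which 38 are described, and 32 of these were bright enough to be tested among 19797 genes in all. The mice were BALB/c, 4 to 6 weeks old, and every mouse of both groups received azoxymethane (AOM, a carcinogen) one week before the start and dextran sodium sulphate (DSS, which inflames the colon) in the drinking water during the first 5 days, a model of colitis-associated colorectal cancer. The CRC group was gavaged with the vehicle, sonicated water, and the CRC + E171 group with 5 mg/kg body weight of E171, the food-grade form of titanium dioxide, on 5 days per week. Mice were taken after 2, 7, 14 and 21 days, with 2 males and 2 females in each group at each day, except that CRC at 21 days had 1 male and 2 females. All comparisons are therefore between animals that share the carcinogen and the colitis, and untreated colon was not analysed here.

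Hox genes code for homeodomain transcription factors, which bind DNA and give the cells of each level of the head-to-tail axis their regional identity. They lie side by side in clusters named A to D, the order of genes along a cluster follows the order of their expression domains from head to tail, and genes at matching places in different clusters, called paralogs, descend from a common ancestor. In the gut this regional pattern persists after birth, and the genes at the far end of the clusters are known for the hindgut, from which distal colon and rectum form.

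All levels are on a log2 scale: the brightness of a gene's probe, or the mean over its probes, relative to the 75th percentile of the same array, which is 0. Levels were compared only for the same gene between arrays, since brightness differs between probes. A gene was called when its fold change was at least 1.5 and its unadjusted p in limma was below 0.05. Adjusted p-values are Benjamini-Hochberg values over all 19797 genes. In whole tissue, fewer cells of a type and less RNA per cell cannot be told apart.

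Between 67.4% and 78.9% of spots were well above background on each array. Each of the 8 slides held both exposure groups, but never of the same day, and CRC arrays always lay in one slide column and CRC + E171 arrays in another, so that position and exposure cannot be told apart. The array labelled male 2 of CRC at 14 days carried Xist at -1.60 and the Y-linked Ddx3y at -8.93, which are the levels of a female. Colonocyte markers (Car1, Car4, Slc26a3, Aqp8, Krt20 and Guca2a) were all above background on 30 arrays and 5 of 6 on the remaining one, male 1 of CRC at 7 days. The value of a marker list on an array is the median, over its genes, of the log2 level minus the gene's mean over all arrays. For the colonocyte list it was below -2 on 3 arrays, at -7.73 and -4.43 in male 1 and male 2 of CRC at 7 days and at -3.94 in male 2 of CRC + E171 at 14 days. The neutrophil list lay at 4.99, 6.12 and 5.96 there. Calls that rest on these arrays are given with and without them.

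Promoters are printed for 5 genes at the ends of the range of behaviour described below: Hoxa13, Hoxd12 and Hoxd13, which fell away on 3 arrays, and Hoxb8 and Hoxd4, which were bright on the same arrays. Each is the 250 bases before the annotated start, read 5′ to 3′ on the gene's strand, from RefSeq on build GRCm38.p6. The positions are chr6:52260881-52261130 (minus strand) for Hoxa13, chr2:74667975-74668224 (plus) for Hoxd13, chr2:74674763-74675012 (plus) for Hoxd12, chr11:96281655-96281904 (plus) for Hoxb8 and chr2:74721728-74721977 (plus) for Hoxd4. Capitals mark TTTATG and TTTATA on either strand, letters close to those that caudal-type and posterior Hox homeodomains are known to prefer. On the opposite strand TTTATA reads TATAAA, the letters of a TATA box.
Hoxa13: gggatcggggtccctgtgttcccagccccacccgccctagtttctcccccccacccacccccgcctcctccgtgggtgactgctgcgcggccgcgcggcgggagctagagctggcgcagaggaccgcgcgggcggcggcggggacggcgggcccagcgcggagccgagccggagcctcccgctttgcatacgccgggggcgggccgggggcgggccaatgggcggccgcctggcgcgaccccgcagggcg
Hoxd13: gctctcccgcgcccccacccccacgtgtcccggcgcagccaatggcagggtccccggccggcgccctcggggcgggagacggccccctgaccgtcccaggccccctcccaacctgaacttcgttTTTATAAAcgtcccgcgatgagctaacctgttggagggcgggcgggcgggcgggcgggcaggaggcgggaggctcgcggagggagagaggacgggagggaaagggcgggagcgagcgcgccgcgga
Hoxd12: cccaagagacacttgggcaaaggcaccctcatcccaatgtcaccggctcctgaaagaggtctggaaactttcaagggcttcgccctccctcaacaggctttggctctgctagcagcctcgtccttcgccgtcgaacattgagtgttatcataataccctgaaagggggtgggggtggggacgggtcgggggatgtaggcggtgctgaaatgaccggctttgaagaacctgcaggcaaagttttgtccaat
Hoxb8: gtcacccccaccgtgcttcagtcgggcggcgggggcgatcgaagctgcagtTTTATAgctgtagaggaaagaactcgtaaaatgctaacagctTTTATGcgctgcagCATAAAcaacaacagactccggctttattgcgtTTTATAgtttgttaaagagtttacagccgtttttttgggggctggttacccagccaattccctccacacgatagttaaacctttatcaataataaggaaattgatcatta
Hoxd4: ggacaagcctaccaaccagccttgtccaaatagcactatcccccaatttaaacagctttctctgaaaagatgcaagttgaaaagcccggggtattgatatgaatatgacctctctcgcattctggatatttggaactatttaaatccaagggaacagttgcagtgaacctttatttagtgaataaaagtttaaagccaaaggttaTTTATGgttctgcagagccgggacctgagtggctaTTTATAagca

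The RefSeq table held 24 promoters for 22 of the 38 genes. Across these 24, the number of CpG dinucleotides per 250 bases ran from 2 to 35 with a median of 12.5, and over the 32841 mouse promoters of the same length the median was 6. The CpG count was 35 for Hoxa13 and 31 for Hoxd13, with a G and C content of 80% and 74.4%. It was 10 for Hoxd12, 12 for Hoxb8 and 3 for Hoxd4. At least 1 TTTATG was present in 20.8% of the Hox promoters and in 10.8% of all promoters, and at least 1 TTTATA in 16.7% and 12.4%. Hoxb8 carried 2 of each and Hoxd4 1 of each, while Hoxd13 carried TTTATA on both strands in the same 8 letters and the windows of Hoxa13 and Hoxd12 held neither. A match of letters is a description of the window, and binding was not measured.

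Detection followed the clusters. Of the 38 genes, 20 were above background on all 31 arrays, 8 on 20 to 30 arrays and 10 on fewer than 20. All 10 HoxA genes described were tested, and each was above background on every array. HoxB had 9 of 10 tested (all but Hoxb1), HoxD 7 of 9 (all but Hoxd1 and Hoxd3) and HoxC 6 of 9 (all but Hoxc5, Hoxc12 and Hoxc13). The genes left out were dim in this tissue: Hoxb1 was above background on 1 array, Hoxc12 on 0 and Hoxd3 on 10. Among the HoxC genes that were tested, Hoxc9 was above background on 8 arrays, Hoxc11 on 6 and Hoxc10 on 5, against 26 for Hoxc4 and 20 for Hoxc6. Hoxb8, Hoxc10 and Hoxc11 passed the filter on dim probes only through CRC + E171 at 14 days, where 3 of 4 arrays measured each, so that a higher level in that group was built into their selection.

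**Figure D1:**
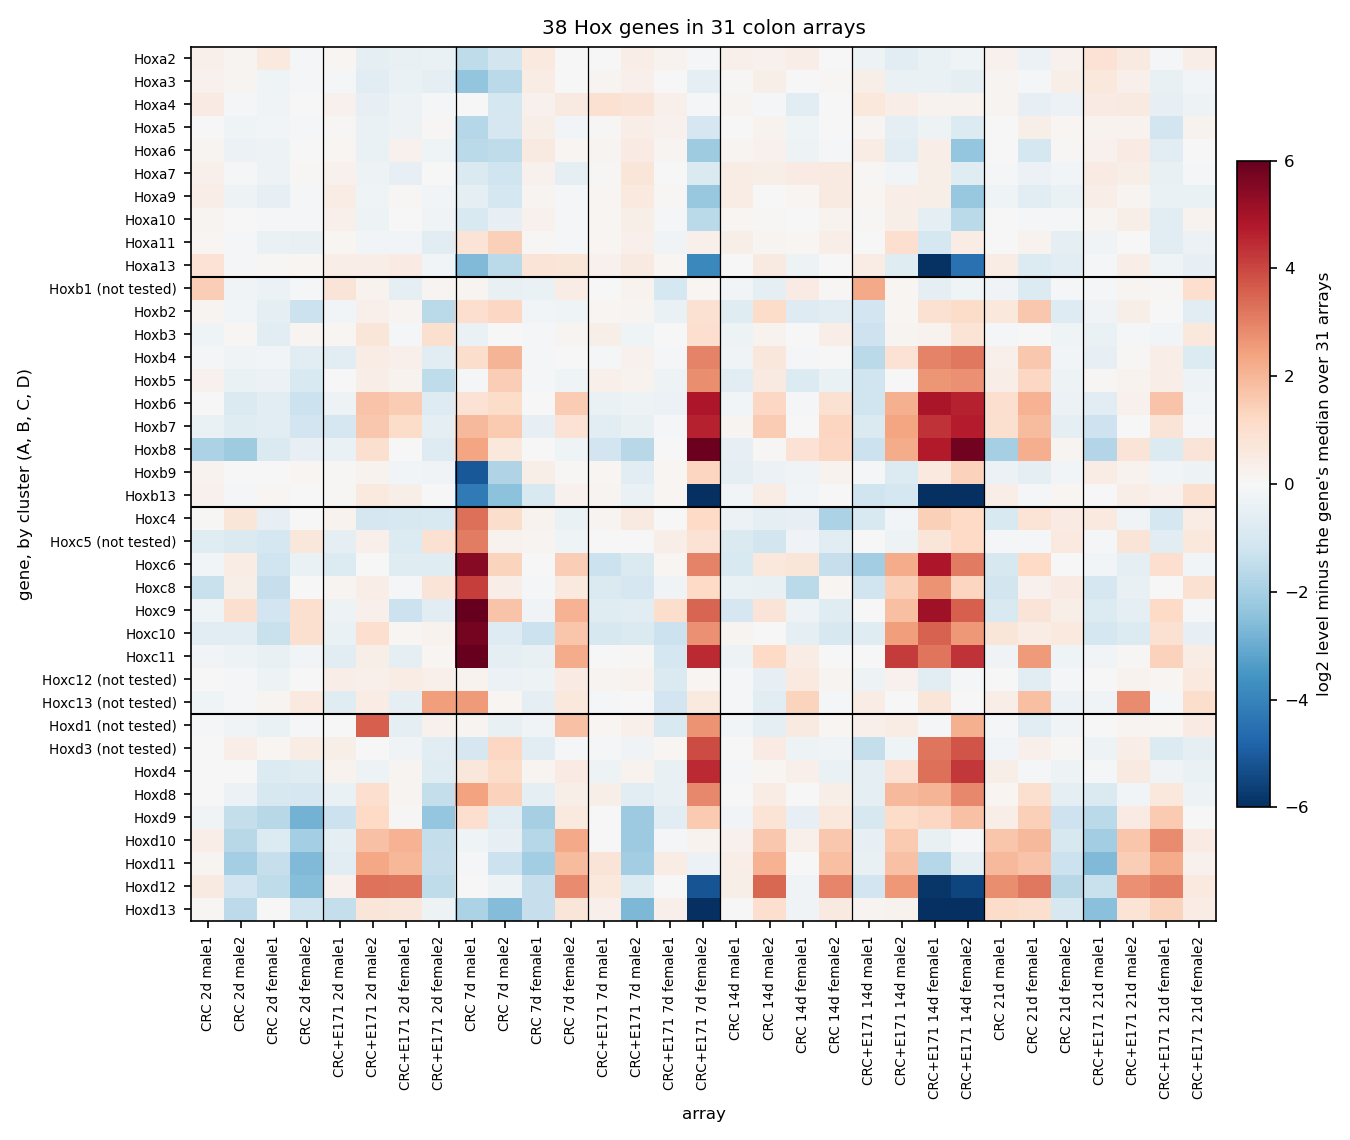
Heat map of 38 Hox genes (rows, by cluster and in order along it) on 31 colon arrays (columns, by group), coloured by log2 level minus the gene's median over arrays. Female 2 of CRC + E171 at 7 days, female 1 and female 2 of CRC + E171 at 14 days and male 1 of CRC at 7 days stand apart in many rows, and Hoxd10 to Hoxd12 vary among the other arrays too.

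Paralog groups 4 and 9 each have a gene in all 4 clusters, like group 13. Of group 4, Hoxa4 ran from -4.43 through a median of -3.38 to -2.47 over the 31 arrays, Hoxb4 from -3.67 through -2.05 to 1.13, Hoxc4 from -7.03 through -5.14 to -1.81 and Hoxd4 from -4.38 through -3.54 to 0.95. Only Hoxb4 and Hoxd4 of these had their highest levels on the 3 arrays described below, and Hoxc4 was highest in male 1 of CRC at 7 days. Of group 9, the first of the posterior genes, Hoxa9 ran from -3.35 through -1.06 to -0.46, Hoxb9 from -6.42 through -1.35 to 0.03, Hoxc9 from -8.97 through -7.70 to -0.32 and Hoxd9 from -6.21 through -3.39 to -1.65. Hoxc9 was thus a gene near background with a few bright arrays, whereas Hoxa9 and Hoxb9 were measured on every array with a few dim ones.

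Variation between arrays was summarised by place along the cluster. The median standard deviation over the 31 arrays was 0.555 for the 4 tested anterior genes (paralog groups 1 to 3), 1.14 for the 14 central genes (groups 4 to 8) and 1.60 for the 14 posterior genes (groups 9 to 13). The order of the medians did not hold for each gene: the posterior genes Hoxa10 and Hoxa11 had SDs of 0.499 and 0.497, and the posterior median includes Hoxc9, Hoxc10 and Hoxc11, which were near background on most arrays. Hoxa4 had an SD of 0.447. Hoxb3 had an SD of 0.466 for the mean of 3 probes that varied apart (lowest r between them 0.0497), so its SD does not describe any one of them. The widest were Hoxb13, whose level ran from -8.41 to 6.49, and Hoxd13, which ran from -8.19 to 3.40. Within groups, the SD of Hoxb13 was 3.28 and that of Hoxd13 2.76, so most of this spread lay between arrays of the same exposure and day. These groups hold both sexes.

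Paralog group 13 holds the last gene of each cluster. Hoxb13, known as a marker of the distal colon and rectum, lay between 5.49 and 5.81 in CRC at 2 days and between 5.52 and 6.11 in CRC + E171 at 2 days. At 7 days the CRC arrays read 1.29 and 3.1 in the males and 4.63 and 5.82 in the females, and the CRC + E171 arrays 5.70, 5.14 and 5.68 with -8.41 in female 2. At 14 days the 4 CRC arrays lay between 5.36 and 5.96, and the CRC + E171 arrays read 4.36 and 4.50 in the males and -1.76 and -6.83 in the females. At 21 days the ranges were 5.48 to 5.96 and 5.53 to 6.49. Hoxb13 was thus bright on 28 arrays of all groups, and 3 arrays, all of CRC + E171 females, lay below 0. On 2 of the 3 (female 2 of each day) it was not well above background.

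Hoxd13 and Hoxa13, which with their paralogs pattern the hindgut, genital bud and digits, were lowest on the same 3 arrays. Hoxd13 read -8.19 in female 2 at 7 days and -5.47 and -7.38 in female 1 and female 2 at 14 days, and lay between -0.62 and 3.40 on the other 28 arrays. Hoxa13 read -3.56, -5.62 and -4.14 on the 3 arrays and lay between -2.33 and 1.17 elsewhere. Hoxc13, the remaining paralog, known from hair and nail, was above background on 4 arrays and was not tested.

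**Figure D2:**
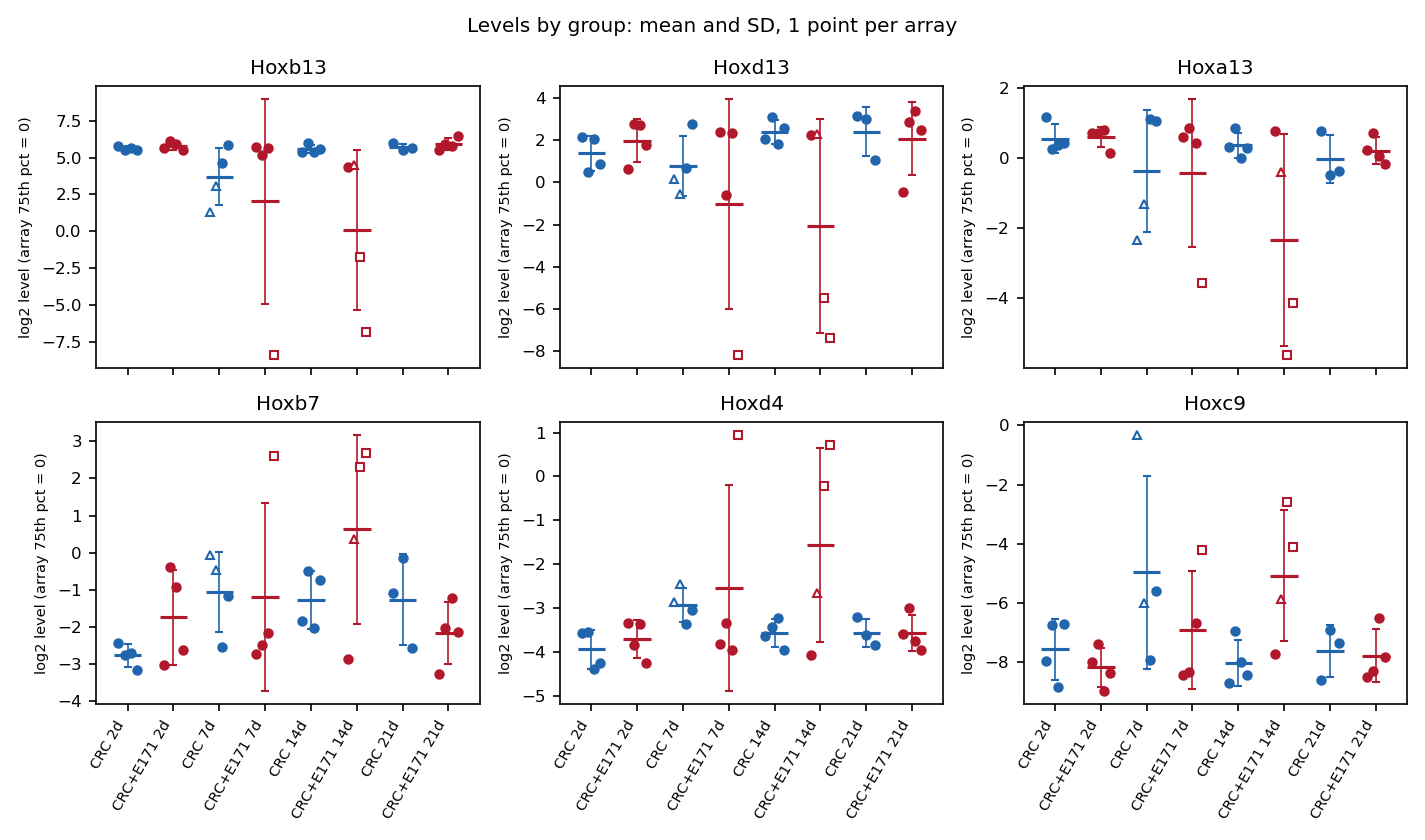
Log2 level (0 is the array's 75th percentile) of 6 Hox genes by group, blue for CRC and red for CRC + E171, 1 point per array, with the mean as a line and the SD as a bar. Open squares are the 3 arrays on which Hoxb13 lay below 0, and open triangles the 3 arrays low in colonocyte markers. The squares lie below every other point for Hoxb13, Hoxd13 and Hoxa13 and above for Hoxb7 and Hoxd4.

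On the 3 arrays genes before the last of the cluster stood apart too. They were singled out by Hoxb13, so the values that follow are a description. Of the 32 tested genes, 4 lay below all other 28 arrays on all 3 (Hoxa13, Hoxb13, Hoxd12 and Hoxd13) and 7 lay above (Hoxb4, Hoxb5, Hoxb6, Hoxb7, Hoxb8, Hoxb9 and Hoxd4). The other 21 tested genes did not lie outside on all 3, among them Hoxb2, Hoxb3 and Hoxd8 to Hoxd11. Over all 19797 genes, 1.13% lay below and 2.54% above in the same way. The place of Hoxb13 was fixed by the choice of arrays. Hoxb8 entered the test only through CRC + E171 at 14 days, a group to which some of these arrays belong. With both left aside, Hoxa13, Hoxd12 and Hoxd13 lay below, and Hoxb4, Hoxb5, Hoxb6, Hoxb7, Hoxb9 and Hoxd4 above. In HoxB, the run from Hoxb4 to Hoxb9 was bright and Hoxb13 was dim. Hoxb6 read 2.64, 2.68 and 2.38 on the 3 arrays against -3.49 to -0.07 on the others, and Hoxb7 read 2.60, 2.32 and 2.69 against -3.26 to 0.36. Hoxb8 read -0.60, -1.73 and -0.70 against -8.61 to -4.15.

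In HoxD the order reversed along the cluster. Hoxd4 read 0.95, -0.22 and 0.72 on the 3 arrays against -4.38 to -2.45 elsewhere, and Hoxd3, which was not tested, lay between -3.30 and -2.57 against -7.90 to -5.27. Hoxd9 and Hoxd10, in the middle, fell within or close to the range of the other arrays, with Hoxd10 between -2.0 and -1.38 beside a median of -1.45 over the other 28. Hoxd12, at the far end with Hoxd13, read -8.36, -9.0 and -8.67, below the -5.73 that was lowest elsewhere. None of these 3 readings was well above background, and those of Hoxd13 in female 2 of each day were not either. HoxA did not share one pattern over the 3 arrays: Hoxa9 read -3.33 and -3.35 in female 2 at 7 days and female 2 at 14 days, and -0.69 in female 1 at 14 days, where the other 28 arrays lay between -2.13 and -0.46. Of the tested HoxC genes, all were below male 1 of CRC at 7 days on these arrays. Hoxc6 lay between -3.16 and -1.26 beside a median of -6.28 over the other 28 arrays, and Hoxc9 between -4.20 and -2.60 beside -7.87.

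**Figure D3:**
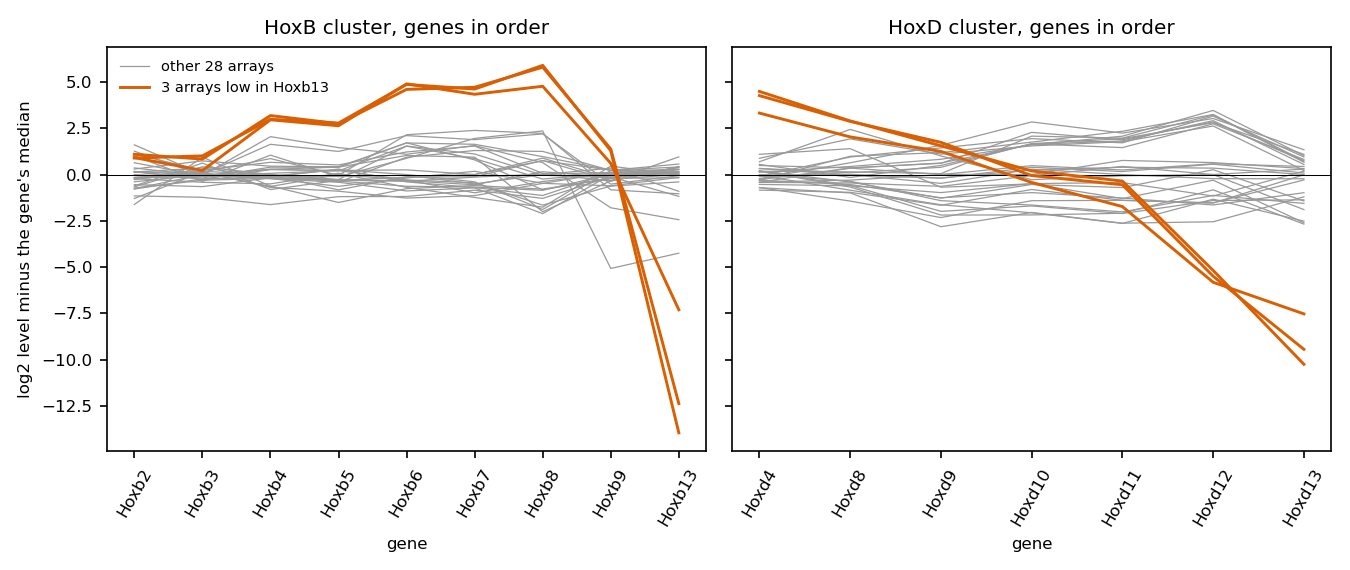
Log2 level minus the gene's median over arrays for the tested genes of HoxB and HoxD in order along each cluster, 1 line per array. The 3 arrays low in Hoxb13 (orange) lie above the other 28 arrays (grey) at Hoxb4 to Hoxb9 and at Hoxd4, and below them at Hoxb13, Hoxd12 and Hoxd13.

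Marker lists of other cells and regions were read on the same 3 arrays. All 6 colonocyte markers were above background, and their summed linear level lay between 366 and 642, against 6.2 to 406 on the other 28. The summed level of the small intestine list (Gata4, Onecut2, Fabp6, Slc10a2, Lct, Apoa4 and Fabp2) was 97.7 to 219 against 0.675 to 16.4, with 4 to 6 of the 7 genes above background, and the value of that list was -0.22, 3.42 and 0.40 against -1.82 to 0.68, so that female 1 at 14 days alone lay above the others. Squamous markers, of which 6 of 8 were above background, summed to between 1.29 and 1.35 against 1.67 to 591. The adipocyte list lay at 2.69 and 2.65 in female 2 at 7 and 14 days and at 0.28 in female 1 at 14 days. The part of these differences in the Hox levels was not tested.

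The genes whose levels over 31 arrays were most like those of the group 13 genes, Hox genes aside, are named here. For Hoxb13 they were Ly6g (Pearson r 0.962), Wfdc2 (0.919), Vsig1 (0.915), Gpr137b (0.911) and Evx1 (0.906). Evx1 is a homeobox gene that lies beside HoxA, and it read -8.24, -8.23 and -8.54 on the 3 arrays. For Hoxd13 they were Fxyd4 (0.938), Wfdc2 (0.921), Tmprss13 (0.912), Lnpk (0.912) and Ly6g (0.909), of which Lnpk lies beside HoxD. For Hoxa13 they were Thbs4 (0.955), B3gnt5 (0.929), Abtb2 (0.905), Ly6g (0.896) and Unc119 (0.893). Over the other 28 arrays the 2 nearest were Cgn (0.960) and Hnf4g (0.919) for Hoxa13, Cldn3 (0.939) and Smim6 (0.937) for Hoxb13, and Usp49 (0.828) and Rnf152 (0.796) for Hoxd13. These include the 3 arrays low in colonocyte markers, and r to these genes was not taken without them. In male 1 and male 2 of CRC at 7 days Cldn3 read 0.79 and 3.54 and Cgn -1.99 and -1.17, the lowest levels of each. Of the 5 nearest in each case, Fxyd4 was shared for Hoxd13 (0.792 over 28 arrays), and none was shared for Hoxa13 or Hoxb13. Cgn and Cldn3 code for tight junction proteins and Hnf4g for an epithelial nuclear receptor.

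Male 1 of CRC at 7 days stood apart in another way. Of the 32 tested genes, 6 were higher on it than on all other 30 arrays, which were the 6 tested HoxC genes, and 4 were lower (Hoxa2, Hoxa3, Hoxa5 and Hoxb9). Over all genes, 13.1% were higher and 14.5% lower there. Hoxc9 read -0.32 against -8.97 to -2.60 elsewhere, Hoxc11 read -1.03 against -9.35 to -3.80, and Hoxc6 read -0.69 against -8.23 to -1.26. HoxC genes are known for the trunk, limb and skin. On this array Hoxb9 was -6.42 against -3.14 to 0.03, the skeletal muscle list lay at 7.37 with 8 of 8 markers above background, the squamous list at 7.38 with 8 of 8, and the colonocyte list at -7.73. The part of these cells in the HoxC levels was not tested.

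At 2 days 0 of the 32 genes were called, where over all genes 1.55% were called higher and 0.172% lower in CRC + E171. At an unadjusted p below 0.05 the count was also 0 in limma, and 2.73% of all genes passed. The median log2 difference was 0.13 for the Hox genes and 0.06 for all genes. The smallest p among higher genes was that of Hoxd11, with a difference of 2.02 (SE 1.08, adjusted p = 0.999 in limma), and that of Hoxb3, with 0.61 (SE 0.33). Among lower genes it was Hoxa2, with -0.53 (SE 0.30), and Hoxc4, with -0.73 (SE 0.62). All 7 tested HoxD genes had a positive difference, of which that of Hoxd12 had the greatest size (2.46, SE 1.65), and none of them passed the test.

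At 7 days, 3 of 32 genes were up-regulated in CRC + E171 and 0 were down-regulated, against a background of 6.93% higher and 5.48% lower over all genes. The 3 were Hoxb9 (log2 difference 1.83, SE 0.70, adjusted p = 0.219 in limma), Hoxa3 (0.86, SE 0.39, adjusted p = 0.275) and Hoxa2 (0.63, SE 0.30, adjusted p = 0.296). Hoxb9, active in the posterior trunk, read -6.42 and -3.14 in the CRC males and -1.002 and -1.26 in the CRC females, and between -1.97 and -0.06 in CRC + E171. Its groups overlapped, and the 2 CRC males were the low arrays. The HoxC genes had the opposite sign, with Hoxc8 at -1.49 (SE 0.78) and Hoxc9 at -1.95 (SE 1.17), and 0 of 6 were called.

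The calls at 7 days moved with the arrays that stood apart. With the 3 arrays low in colonocyte markers left out 0 Hox genes were called, and the differences were -0.25 for Hoxa3, -0.17 for Hoxa2, 0.00136 for Hoxb9, -0.47 for Hoxc8 and -0.14 for Hoxc9. The background was then 1.22% higher and 1.43% lower. Leaving out the 3 arrays low in Hoxb13 gave 12 calls: Hoxa3 to Hoxa7, Hoxa9 and Hoxb13 up, and Hoxc6, Hoxc8, Hoxc9, Hoxc10 and Hoxd4 down, with 6.26% of all genes higher and 4.76% lower. The level of Hoxb13 chose the arrays left out, so its own call there is no result. Of the 3 genes called with all arrays Hoxa3 was called here too (1.05), and Hoxb9 (1.47) and Hoxa2 (0.70) were not. Without female 1 of CRC the count was 9 (5 higher and 4 lower), where 10.1% of all genes were higher and 9.96% lower. It was 9 as well (5 and 4) without female 2 of CRC + E171, where the shares were 5.93% and 4.71%, and 0 without male 1 of CRC, where they were 2.66% and 1.96%. Colonocyte markers (5 of 6), goblet cell markers (6 of 7), pan-epithelial markers (7 of 7) and small intestine genes (2 of 7) were called higher in CRC + E171 at this day, and skeletal muscle (6 of 8), pancreatic acinar (3 of 6), macrophage (2 of 5), endothelial (2 of 5) and fibroblast markers (1 of 7) lower. The colonocyte sum ran from 6.2 to 309 in CRC and from 232 to 426 in CRC + E171, and its part in the Hox calls was not tested.

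At 14 days, 5 of 32 genes were up-regulated and 5 down-regulated in CRC + E171, against 3.24% higher and 3.1% lower over all genes. Of the 5 up-regulated genes, Hoxc10 and Hoxc11 had entered the test only through CRC + E171 at 14 days, and with Hoxb8, Hoxc10 and Hoxc11 left aside 3 of 29 were up-regulated and 5 down-regulated. The down-regulated genes were 4 from the posterior ends, Hoxb13 (log2 difference -5.51, SE 2.21), Hoxd13 (-4.47, SE 1.87), Hoxd12 (-4.09, SE 1.65) and Hoxa13 (-2.71, SE 1.02), together with Hoxa2 (-0.64, SE 0.30), an anterior gene known from the hindbrain. Hoxb13 and Hoxd13 were well above background on 3 of the 4 CRC + E171 arrays and Hoxd12 on 2, so that the size of these 3 differences depends on values near background. The up-regulated genes were Hoxd4 (2.00, SE 0.82), Hoxc8 (1.66, SE 0.78), Hoxc9, Hoxc10 and Hoxc11, the last 3 with only a bound on their fold, given below. Hoxb13 had a mean of 5.57 ± 0.28 (SD, n = 4 arrays) in CRC and of 0.07 ± 5.45 (SD, n = 4) in CRC + E171. The smallest adjusted p among the 10 genes was 0.534, for Hoxa13, in limma. The median difference was 1.37 for the 14 central genes, -0.58 for the 14 posterior genes and 0.01 for all genes. With Hoxb8, Hoxc10 and Hoxc11 left aside it was 1.36 for 13 central and -0.71 for 12 posterior genes. Of the marker lists of other cells, small intestine genes were called higher in 2 of 7, smooth muscle markers lower in 1 of 8 and neutrophil markers lower in 1 of 5, and their part in the Hox calls was not tested.

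Most of these differences came from part of the group. Hoxd12 read -2.83, 0.29, -3.40 and -0.27 in CRC at 14 days, and -4.34 and -0.56 in the males and -9.0 and -8.67 in the females of CRC + E171. Hoxd4 read -3.64, -3.42, -3.22 and -3.96 in CRC, and -4.08 and -2.66 in the males and -0.22 and 0.72 in the females of CRC + E171. Hoxc9 read -8.69, -6.94, -7.99 and -8.43 in CRC, and -7.70, -5.88, -2.60 and -4.11 in CRC + E171. For Hoxd12, Hoxd13, Hoxa13 and Hoxd4 the males of CRC + E171 lay within or near the CRC range and the females did not.

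Two-sided exact permutation tests of the 4 arrays against 4 can give no p below 0.0286. In 3 genes, Hoxb13, Hoxa2 and Hoxa7, all 4 CRC + E171 arrays lay below all 4 CRC arrays, and in 1 gene, Hoxa4, all lay above (exact p = 0.0286 for each). Over all genes, 2.7% were lower and 3.2% higher in CRC + E171 without overlap. The difference of Hoxa7 was -0.57 (SE 0.30) and that of Hoxa4 0.51 (SE 0.30), and neither was called. Hoxa2 lay between -2.73 and -2.31 in CRC and between -3.38 and -2.94 in CRC + E171, a small shift shared by both sexes. Hoxc9, Hoxc10 and Hoxc11 were not well above background on any CRC array of this day, so only a bound can be given. Against the dimmest signal measured on those arrays they were at least 2.21-fold, 1.69-fold and 1.82-fold higher in CRC + E171, where 3 of 4 arrays measured each. For Hoxc10 and Hoxc11 these arrays are also those that brought the gene into the test, so the direction is no independent result.

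**Figure D4:**
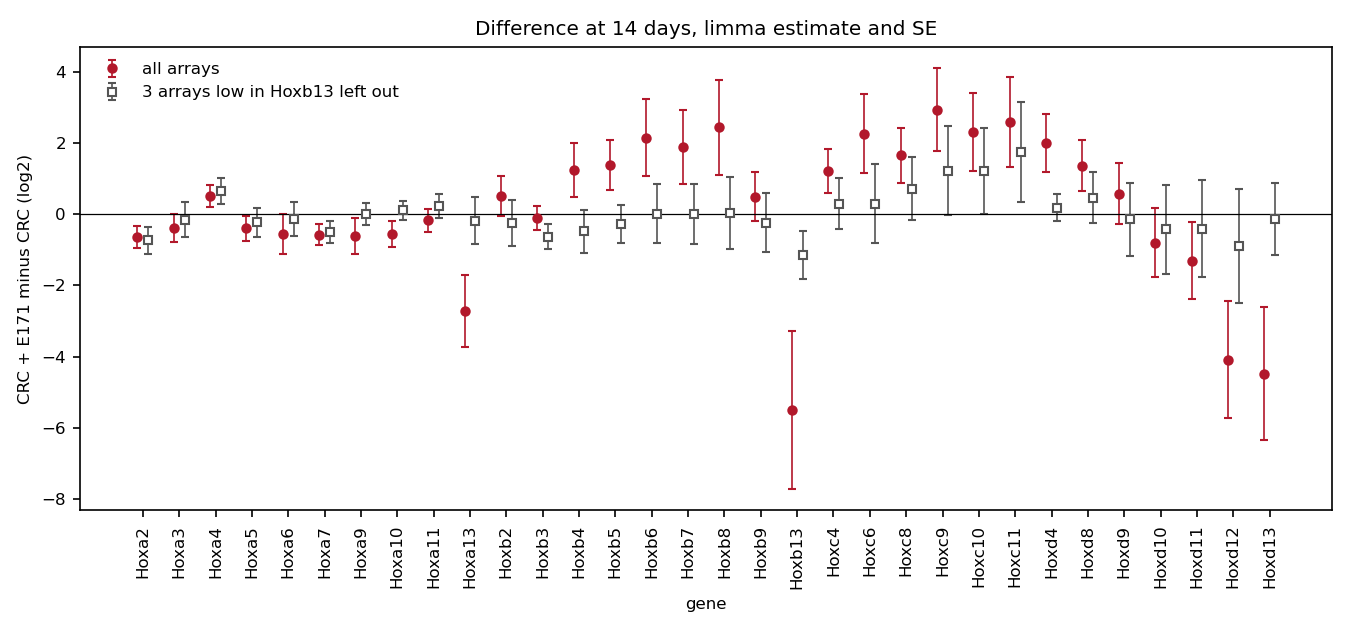
Difference between CRC + E171 and CRC at 14 days (log2, limma estimate with its SE) for the 32 tested Hox genes in cluster order, with all arrays (red) and with the 3 arrays low in Hoxb13 left out (open grey). Without those arrays the difference of Hoxb13 moves from -5.51 to -1.14 and that of Hoxd13 from -4.47 to -0.13, and 0 genes are called. The level of Hoxb13 chose the arrays left out, so its own move is no result, and Hoxd13 was lowest on the same arrays. Hoxc9, Hoxc10 and Hoxc11 are drawn at their fitted values, although CRC did not measure them.

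Leaving out the 3 arrays low in Hoxb13 keeps 2 males in CRC + E171 at 14 days, and 0 of 32 genes were then called at this day, with 1.42% of all genes higher and 1.67% lower. Hoxa2 kept its size, at -0.74 (SE 0.39, adjusted p = 0.9995 in limma). Without female 1 of CRC + E171 the count was 1, with 2.93% of all genes higher and 1.53% lower, and without female 2 it was also 1, with 1.62% and 3.41%. Without male 1 of CRC + E171 it was 17, of which 13 were higher and 4 lower, with 4.83% and 3.57% over all genes. Leaving out the 3 arrays low in colonocyte markers gave 13 (smallest adjusted p = 0.0622, Hoxd12), with 6.59% of all genes higher and 7.5% lower, and the count without the CRC array labelled male 2 was 8, with 2.69% and 3.22%. All these counts keep Hoxb8, Hoxc10 and Hoxc11 among the 32 genes. Those entered the test only through CRC + E171 at 14 days, so a higher call of theirs is no independent result. Within the scan day that held both groups, with 2 arrays each, Hoxd4 differed by 2.46, Hoxb13 by -6.54 and Hoxd13 by -4.50, the last 2 with 1 of the 2 CRC + E171 arrays not well above background. Those CRC + E171 arrays were male 2, low in colonocyte markers, and female 2, low in Hoxb13. Hoxb13 read 4.50 and -6.83 on them.

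At 21 days 0 genes were called, where 0.844% of all genes were higher and 1.82% lower. The count at an unadjusted p below 0.05 was 0 as well in limma, and 5.8% of all genes passed. The largest shifts by p were Hoxa2 (0.39, SE 0.33) and Hoxa4 (0.29, SE 0.32) among the higher genes and Hoxb2 (-0.61, SE 0.60) and Hoxb4 (-0.80, SE 0.82) among the lower. Hoxb13 lay between 5.48 and 6.49 on all 7 arrays of this day, and the median difference was -0.15 for the Hox genes and 0.02 for all genes.

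Averaged over the 4 days, 0 genes were called for a mean effect of E171, with 0.525% of all genes higher and 1.27% lower. The differences were 0.30 (SE 0.16) for Hoxa4, 0.24 (SE 0.14) for Hoxb3, -1.30 (SE 0.90) for Hoxd13 and -1.51 (SE 1.14) for Hoxb13. With the 3 arrays low in Hoxb13 left out the last pair turned positive, at 0.18 and 0.27. Hoxb13 chose those arrays and Hoxd13 was lowest on them too, so these changes of sign are no independent result. Leaving out the 3 arrays low in colonocyte markers gave 2 calls, Hoxa13 (-1.13) and Hoxd13 (-2.04), with 0.828% of all genes higher and 0.828% lower, and leaving out male 1 of CRC + E171 at 14 days gave 2 calls as well, with 0.839% higher and 1.41% lower. By limma's F test of whether the effect of E171 differed between days, 3 genes had an unadjusted p below 0.05 (in limma), Hoxa2, Hoxc9 and Hoxc8, where 6.52% of all genes passed. After adjustment 0 passed (adjusted p = 0.717 in limma for each of the 3).

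Levels between days, over both exposure groups, gave 0 Hox genes after adjustment, where 0.096% of all genes passed, and 0 at an unadjusted p below 0.05, where 14.5% of all genes passed. The nearest were Hoxa11, known for limb and uterus (adjusted p = 0.350 in limma), and Hoxd8 (adjusted p = 0.380). Hoxd8 had means of -3.02, -1.93, -1.77 and -2.67 at 2, 7, 14 and 21 days, with SD between 0.636 and 1.39.

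Between the sexes, 2 of 32 genes were called higher in females and 0 lower, where 1.82% of all genes were higher and 1.16% lower. Hoxb8 was higher by 1.57 (SE 0.62, adjusted p = 0.448 in limma) and Hoxb9 by 0.73 (SE 0.33, adjusted p = 0.535). Hoxb8 lay between -7.35 and -0.60 in the 16 females and between -8.61 and -4.15 in the 15 males, so the sexes overlapped widely. It was above background on 12 of the 31 arrays and entered the test only through CRC + E171 at 14 days, so its difference rests in part on values near background, and with it left aside 1 of 31 genes was called. These groups follow the labels, and the array labelled male 2 of CRC at 14 days counts as male. Without it both genes were still called, at 1.61 (SE 0.64) and 0.75 (SE 0.35). The 3 arrays low in Hoxb13 are all female, and without them neither was called, with differences of 0.60 and 0.54, while Hoxb2 was called lower in females at -0.77. In that setting 1.75% of all genes were called higher and 1.82% lower in females. Hoxa11 and Hoxa4 were lower in females by 0.45 and 0.29 on the log2 scale (differences -0.45 and -0.29, SE 0.14 each), which is under the fold threshold. The 3 arrays low in colonocyte markers are all labelled male, and with them left out 3 genes were called, Hoxb8 (2.09) and Hoxc8 (0.84) higher and Hoxa13 (-1.33) lower in females, where 1.85% of all genes were higher and 1.08% lower. Hoxb9 was then at 0.19 and not called, Hoxa4 at -0.49 and Hoxa11 at -0.27.

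A pattern of another kind was found in HoxD. Over the 28 arrays with bright Hoxb13, Hoxd12 lay between -5.73 and -2.53 on 18 arrays and between -0.56 and 0.29 on 10, with no array in between. The same 10 arrays lay above the gap for Hoxd10 (from -1.10 to -0.03) and for Hoxd11 (from -2.72 to -2.02), over all 31 arrays. They came from 6 of the 8 groups, from 6 slides and from all 3 scan days, with 5 of CRC, 5 of CRC + E171, 5 labelled male and 5 female. Of the 2-day CRC group there were 0, and of the 2-day CRC + E171 group 2. Hoxb6, of another cluster and another chromosome, lay between -1.97 and -0.07 on these arrays and between -3.49 and -1.13 on the other 18, so that it overlapped in part. Smooth muscle markers lay between -0.09 and 1.30 and between -0.87 and 0.74 on the same sets, and their part was not tested.

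**Figure D5:**
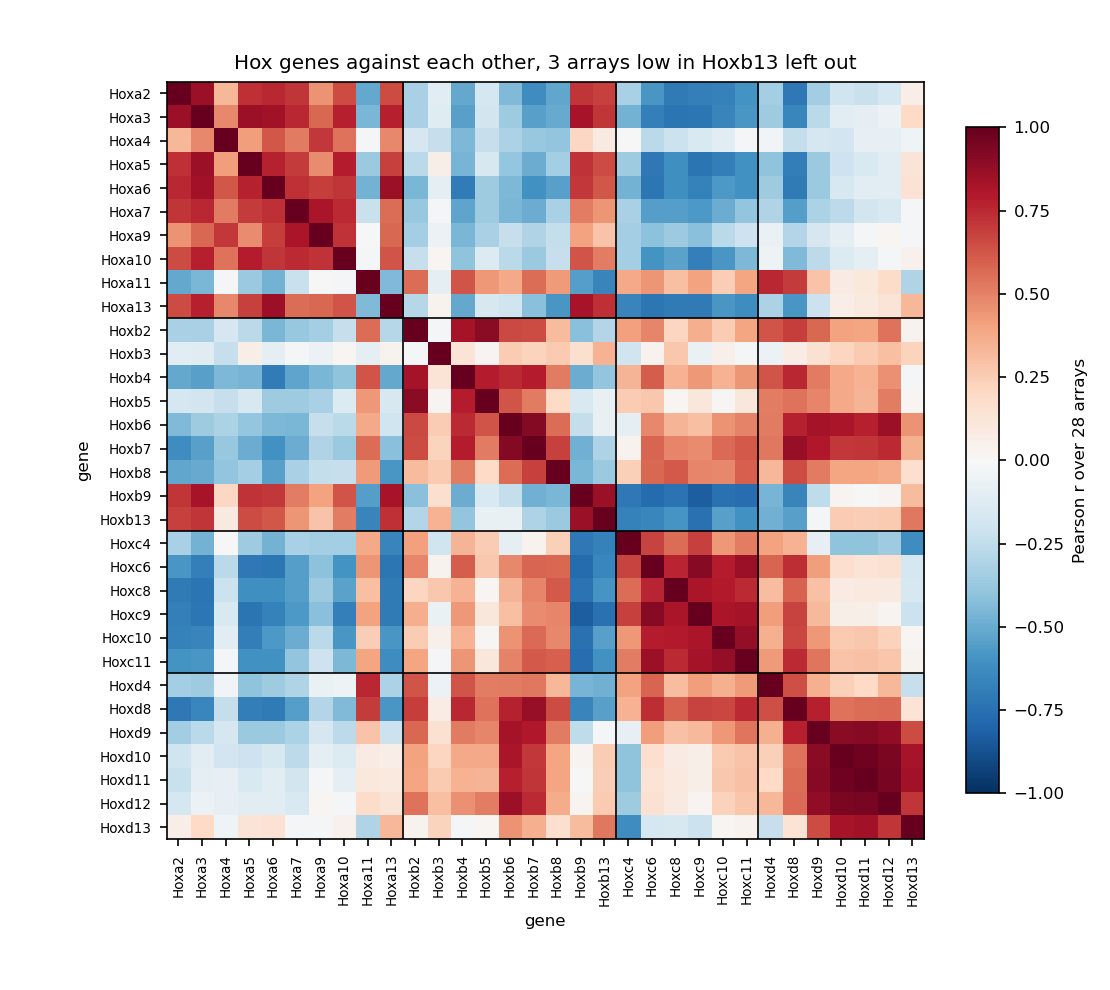
Pearson r between the levels of each pair of the 32 tested Hox genes over the 28 arrays left when the 3 arrays low in Hoxb13 are out, red positive and blue negative, with lines between clusters A, B, C and D. Hoxd9 to Hoxd13 form a block with r of 0.972 for Hoxd10 and Hoxd11, and Hoxb6 and Hoxb7 vary with it.

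The levels of Hoxd9 to Hoxd12 varied together, and those of the genes at either end less so. Over the 28 arrays r was 0.972 for Hoxd10 and Hoxd11, 0.947 for Hoxd11 and Hoxd12, 0.910 for Hoxd9 and Hoxd11 and 0.842 for Hoxd11 and Hoxd13. It was 0.716 for Hoxd12 and Hoxd13 (0.758 over the 25 arrays named next), 0.331 for Hoxd4 and Hoxd12 (0.445) and -0.229 for Hoxd4 and Hoxd13. Of all 19796 other genes, Hoxd10 ranked first for Hoxd11, Hoxd11 first for Hoxd12 and Hoxd11 first for Hoxd13. With the 3 arrays low in colonocyte markers left out too, which leaves 25, r of the first 4 pairs was 0.975, 0.947, 0.944 and 0.894. Hoxb6 and Hoxd12 had r of 0.858 over 28 arrays and 0.914 over 25. Hoxb6 and Hoxb7 had 0.919 and 0.932. Other pairs moved more: Hoxa3 and Hoxa5 went from 0.858 to 0.601, Hoxc6 and Hoxc9 from 0.911 to 0.730, and Hoxb9 and Hoxb13 from 0.863 to -0.0107.

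Pairs chosen by position were tested across arrays. Among genes of paralog groups 4, 9 and 13 there are 30 pairs that share a cluster or a group, and 25 could be computed. Since the group 13 genes fall into separate sets on 3 and 28 arrays, r is given within the 28. The level of Hoxb13 chose these arrays and so limits its own range. For pairs with Hoxb13, r and p describe only the arrays where it was bright. Of the 25 pairs, 12 passed an adjusted p of 0.05 by permutation, 7 of 10 in the same cluster and 5 of 15 in the same paralog group. Over all 31 arrays 13 passed, 5 of 10 in the same cluster and 8 of 15 in the same paralog group. Of the 12 pairs, 3 were negative (Hoxb4 and Hoxb9, Hoxa4 and Hoxb4, Hoxb9 and Hoxc9), and 6 also passed by Spearman's rho. Hoxd9 and Hoxd13 had r of 0.652 and Spearman's rho of 0.741 (permutation, adjusted p = 0.00219 and 0.00025), and r was 0.691 without the 2 farthest arrays. Hoxa4 and Hoxa9 had r of 0.705 and rho of 0.668 (permutation, adjusted p = 0.001 and 0.0015), with 0.641 without the 2 farthest. Hoxb4 and Hoxd4 had r of 0.626 and rho of 0.578 (permutation, adjusted p = 0.00219 and 0.0106), with 0.607.

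The pairs with Hoxb13 that follow were tested on the 28 arrays that its own level chose. Between the group 13 genes themselves, Hoxb13 and Hoxd13 had r of 0.529 and rho of 0.678 (permutation, adjusted p = 0.00958 and 0.0015), with r of 0.366 without the 2 farthest arrays. Hoxa13 and Hoxb13 had r of 0.729 and rho of 0.391 (permutation, adjusted p = 0.0041 and 0.112). Without the 2 farthest arrays r was 0.0423, so this relation rests on those arrays. The same held for Hoxb9 and Hoxb13 (r from 0.863 to 0.202), Hoxc4 and Hoxc9 (0.682 to 0.219) and Hoxb9 and Hoxc9 (-0.825 to -0.142). Hoxa13 and Hoxd13 did not pass, with r of 0.333 and rho of 0.210 (permutation, adjusted p = 0.103 and 0.370).

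Genes that act on or with Hox genes were read from fixed lists. The caudal-type factor Cdx2, which binds Hox clusters and maintains intestinal identity, was called higher in CRC + E171 at 7 days (2.72, SE 0.89, adjusted p = 0.198 in limma), as was Cdx1 (1.53, SE 0.67). With the 3 arrays low in colonocyte markers left out neither was called (1.21 and -0.25), and with the 3 arrays low in Hoxb13 left out Cdx1 was not (1.48). Cdx2 read -4.92 and 0.16 in the CRC males, 1.32 and -0.04 in the CRC females and between 0.72 and 2.89 in CRC + E171. On the 3 arrays low in Hoxb13, Cdx2 lay at 2.89, 3.54 and 2.84 and Cdx1 at 5.39, 5.65 and 5.39. On the other 28 arrays Cdx2 reached at most 2.73, and Cdx1 lay between 0.16 and 6.15. Of 3 genes on this list 2 were called higher at 7 days, where 6.93% of all genes were, and 0 at 2, 14 and 21 days.

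Of the 8 TALE homeodomain cofactors tested (the Pbx, Meis and Pknox families, which bind DNA together with Hox proteins) 0 were called at any day, and Meis1 (-0.66) and Meis2 (-0.72) were lower in females. Without the 3 arrays low in colonocyte markers, all labelled male, they differed by -0.22 each and were not called. Of the 26 Polycomb and Trithorax genes, which hold Hox genes silent or active, 0 were called for E171, and Kdm6a, an X-linked demethylase, was higher in females by 0.59 (SE 0.09, adjusted p = 0.00304 in limma). Its difference was 0.57 without the 3 arrays low in Hoxb13 (adjusted p = 0.0341 in limma). Without the 3 arrays low in colonocyte markers it was 0.51 (adjusted p = 0.0293 in limma). Both are under the fold threshold. In the retinoic acid pathway, which induces Hox genes in the embryo, Aldh1a3 was called higher at 2 days (1.49) and lower at 14 days (-1.65), Stra6 higher (2.26) and Rarg lower (-1.03) at 7 days, and Aldh1a1 (1.96) and Dhrs3 (0.61) higher at 14 days, of 12 genes tested. Over all genes 1.55% were called higher and 0.172% lower at 2 days. The shares were 6.93% and 5.48% at 7 days, and 3.24% and 3.1% at 14 days. Aldh1a1 was also higher in females, by 0.86. It read 5.67, 5.80 and 5.46 on the 3 arrays low in Hoxb13 and at most 2.79 elsewhere, and without them its differences were 0.29 at 14 days and 0.23 between the sexes, neither called, while Aldh1a3 at 14 days was -0.85 and was not called either. With the 3 arrays low in colonocyte markers left out, Rarg was no longer called at 7 days (-0.35) nor Dhrs3 at 14 days (0.41), while Aldh1a1 (2.59, adjusted p = 0.0469 in limma) and Aldh1a3 (-2.35, adjusted p = 0.0405) at 14 days passed adjustment. With all arrays, the smallest adjusted p among these calls for E171 was 0.197 (Stra6, limma).

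Transcripts and genes beside the clusters gave few calls. The antisense transcript Hoxa11os was lower in CRC + E171 at 14 days (-2.23, SE 0.78). It read -0.12 and 0.85 in the females of that group and 1.09 in female 2 of CRC + E171 at 7 days, and lay between 1.58 and 5.18 on the other 28 arrays. Hoxaas2 was higher at 7 days (0.97), and was not called with the 3 arrays low in colonocyte markers left out (0.35). Evx1 was lower at 14 days (-3.93, SE 1.397). It was not well above background in the 2 females of CRC + E171 at 14 days nor in female 2 at 7 days, so the size of its difference depends on values near background. Without the 3 arrays low in Hoxb13, Hoxa11os (-0.41) and Evx1 (-0.36) were not called. Without the 3 arrays low in colonocyte markers both were, Hoxa11os at -2.54 (adjusted p = 0.0772 in limma) and Evx1 at -5.46 (adjusted p = 0.0367). Smug1, a DNA glycosylase gene beside HoxC, was higher in CRC + E171 at 2 days (0.67, SE 0.14) and 21 days (0.60, SE 0.16). Its mean difference over the 4 days was 0.37 (SE 0.07, adjusted p = 0.0705 in limma), and it did not pass the fold threshold.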

How the data were processed

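The deposited scanner files give, per the file headers, fluorescence intensity per spot from Agilent Feature Extraction 10.7.3.1, which had subtracted background and detrended each array, together with 0 or 1 flags for background, saturation and outliers. The authors also deposited a matrix of normalized log2 values, used here as an alternative. The methods place 2 mice of each sex in every group and day, so each of the 31 arrays was read as 1 mouse, and their number limits the precision. The design text also calls the samples duplicates without saying of what, and were any 2 arrays from 1 mouse, n would be smaller and the p-values too small.

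The processed intensity was divided by the 75th percentile of the array and log2-transformed, and outlier spots were set aside. The filter on dim probes needed 1 group with 60% of its arrays free of flags and measurable above background, and a group mean of at least 4 (log2), and 42787 of 56605 probes passed. Probes were matched to RefSeq genes by accession (32994), symbol (10224) or synonym (520), and 12867 had no match. Kept probes of a gene were averaged. Probes of the same gene varied together (lowest r 0.714) except for Hoxb3 (0.0497), whose value is therefore less certain.

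Groups were compared with limma 3.58.1 in R 4.3.3, with all 8 groups in one model for each day, with slide added for the mean effect and sex added for the comparison of sexes. Permutation tests used 100000 draws or all arrangements. Scripts were tested on simulated data. The Hox genes and all lists were chosen with earlier results of these data known. The text names genes of paralog groups 4, 9 and 13, genes called, and where fewer than 4 were called the 2 with the smallest p in each direction. It also names the 5 genes most like each group 13 gene, and list genes when called. Members added beyond this were chosen after their values were seen. One Hox gene and 1 colonocyte marker are not reported here, Prac1 was not analysed here, and no protein sequences were used.

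Alternatives were the authors' log2 matrix, quantile and normexp (offset 50) normalization, no filter, the brightest probe, sex, slide, scan day or replicate number in the model, array weights, only the 2 groups compared, a log2 fold threshold of 1.5, and leaving out arrays.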

Additional observations from a re-analysis of the deposited data

Results flagged for a closer look

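In groups of 4 arrays, the highest or lowest value was set against the others by Dixon's ratio for paralog groups 4, 9 and 13 and the medians of the anterior, central and posterior genes. Of 98 groups tested over 14 items, 12 had an array far from the others, and chance gives about 1 in 20 groups.

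Female 2 of CRC + E171 at 7 days accounted for 5 of them: Hoxb13 at -8.41 (others 5.14 to 5.70), Hoxa13 at -3.56 (others 0.44 to 0.87), Hoxb4 at 0.94 (others -2.16 to -1.78), Hoxd4 at 0.95 (others -3.97 to -3.35) and the central genes at 2.56 (others -0.36 to -0.14). Female 2 of CRC + E171 at 14 days had Hoxa9 at -3.35 (others -0.94 to -0.64), and male 2 of that group had the posterior genes at 1.20 (others -0.51 to -0.26). Female 2 of CRC + E171 at 2 days had the central genes at -1.04 (others -0.19 to -0.02) and Hoxa13 at 0.16 (others 0.72 to 0.80). Male 1 of CRC at 2 days had Hoxa13 at 1.17 (others 0.26 to 0.42). Hoxc4, which was above background on 2 of 4 arrays in either group, was -7.03 in female 2 of CRC at 14 days (others -5.72 to -5.50) and -4.92 in male 1 of CRC + E171 at 2 days (others -6.17 to -6.05).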

How the results depend on the processing

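The number of Hox genes called moved with the arrays included and with their weights. Leaving out each array in turn gave 0 to 2 calls at 2 days (2 without male 1 or female 2 of CRC + E171), 0 to 9 at 7 days, 1 to 17 at 14 days, 0 to 2 for the mean effect and 1 to 3 for sex, and 0 at 21 days, for the effect between days and for levels between days. The counts of 0, 3, 10, 0 and 2 at 2, 7 and 14 days, for the mean effect and for sex became 3, 0, 22, 5 and 1 with array weights. Only the 2 groups compared gave 1, 0 and 5 at 2, 7 and 14 days. At 2 days normexp and the authors' matrix gave 1, and for sex normexp gave 1. A log2 fold change of 1.5 as threshold gave 1 at 7 days and 1 for sex. For array weights, the 2 groups alone, normexp, the authors' matrix and this threshold, the shares over all genes were not taken. Their counts therefore cannot be read as a result about the Hox genes. The same holds at 2 days for any array left out, and for sex for single arrays left out. Without the 3 arrays low in Hoxb13 the counts were 1, 12, 0 and 1 at 2, 7 and 14 days and for sex, and the median at 14 days went from 0.50 to -0.13. Without the 3 arrays low in colonocyte markers they were 0 at 7 days and 2 for the mean effect. Of the 32 genes, without the first set 8, 8, 19 and 18 changed sign at 7 and 14 days, in the mean effect and for sex, and without the second 13, 0, 7 and 2. Among them were Hoxd13 (0.18) and Hoxb13 (0.27) in the mean effect and Hoxb13 (1.79) at 7 days without the first, and Hoxa3 (-0.25) and Hoxa2 (-0.17) at 7 days without the second. Hoxb13 chose the first set, so its own changes of sign are no result. Both sets, and scan day as a block, were chosen after seeing the data, and the cause was not tested.

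The deviations of same-numbered arrays correlated at -0.181 to 0.479, above 0.1 in 8 of 15 pairs and in all 3 of day 21 but not in all pairs of the other days, and no label ties the numbers together, so the block was not used for the reported fits. With the replicate block the counts were 1, 1, 7 and 0 at 2, 7, 14 and 21 days, 0 for the mean effect and 2 for sex. The shares over all genes were not taken with this block, so these counts have no background beside them.

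Of the pairs, 13 of 25 passed over all 31 arrays and 12 over 28. Over all alternatives, 230 counts of calls stayed within 1.5 times the reported count and 41 did not. For single genes, 956 values kept their direction and side of the threshold, 113 kept the direction but lost the call, 22 gained it, 4 reversed and 32 values without a test moved by more than the replicate spread. Hoxb8, Hoxc9, Hoxc10 and Hoxc11 have only bounds on the arrays that did not measure them, as do Hoxb13, Hoxd12 and Hoxd13 on the 2 or 3 arrays where they were not well above background. With 4 arrays a group, no Hox gene passed an adjusted p of 0.05 in limma for E171, day or sex in any comparison reported with all arrays.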
